A study of Mus musculus with 2 samples.

Results

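The 8 genes Ebf1, Pax5, Cd79a, Cd79b, Vpreb1, Igll1, Ighm and Blnk form the early B lineage program followed here, and they are 8 of the 28692 genes listed in each library. They were chosen by name as genes that mark the first steps of B cell development. The question was how much of this program was present in fetal liver progenitors, in which cells, and how much of it was left in cells that had begun T-cell development under Notch stimulation. In the files the genes carry the identifiers ENSMUSG00000057098 (Ebf1), ENSMUSG00000014030 (Pax5), ENSMUSG00000003379 (Cd79a), ENSMUSG00000040592 (Cd79b), ENSMUSG00000059305 (Vpreb1), ENSMUSG00000075370 (Igll1), ENSMUSG00000076617 (Ighm) and ENSMUSG00000061132 (Blnk).

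The cells were hematopoietic stem and progenitor cells (HSPCs) of wild-type CD1 mouse embryos at E13.5, taken from the fetal liver, depleted of TER-119+ cells and sorted as Sca-1+ cKit+. They were seeded at 1000 cells per well on plates coated with 10 µg/mL of DL4, a ligand that activates Notch receptors, and 2.32 µg/mL of VCAM-1, an adhesion molecule. Cells taken before culture and cells from a few days on the plate were pooled, and the labels do not give the days or embryos behind either of the 2 droplet libraries, FL001 and FL002, so no day was assigned. There was no culture without DL4, and each library is a single sample, so no p-value could be given, and all intervals are 95% intervals that cover counting error only.

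A barcode counted as a cell when it held 1500 or more unique molecular identifiers (UMIs, each standing for 1 captured RNA molecule) from 500 or more genes, with mitochondrial genes giving no more than 10% of them. This left 1788 cells in FL001 with a median of 7722 UMIs and 4100 cells in FL002 with a median of 4752.5 UMIs, and 10 barcodes were kept in both libraries. Because no day is known, cells were placed by gates on UMIs of genes outside the program. The progenitor gate needed Lmo2 and Mef2c to sum to at least 2 with Cd3g at most 1 (428 and 724 cells in FL001 and FL002), and the Tcf7 gate at least 1 UMI of Tcf7 with Cd3g at most 2 (239 and 648). The Cd3g gate needed at least 3 UMIs of Cd3g with Il2ra at 0 (327 and 873), the Il2ra gate at least 1 UMI of Il2ra (738 and 1668), and the commitment gate a sum of at least 2 for Ptcra, Lef1 and Bcl11b (451 and 501). Gates could share cells, and 46 cells of FL001 and 80 of FL002 were in both the progenitor and the Tcf7 gate. The Il2ra and commitment gates shared 275 cells in FL001 and 291 in FL002, and the Tcf7 and Il2ra gates 58 and 213. Intervals of ratios between gates treat the sums as independent and do not take shared cells into account. Levels are CPM, the UMIs of a gene per 1e6 UMIs of the same cells.

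B cell development begins when a lymphoid progenitor switches on Ebf1, and Ebf1 then turns on Pax5 and the parts of the pre-B-cell receptor. That receptor is made of the immunoglobulin heavy chain of Ighm, the surrogate light chain of Vpreb1 and Igll1 and the signalling pair Cd79a and Cd79b, and Blnk is the adaptor that carries its signal. Notch signalling in the same kind of progenitor directs cells to the T lineage instead, and its target gene Tcf7 opens the T-cell program. Flt3 is a cytokine receptor of early lymphoid and myeloid progenitors. The constant region of Ighm is also transcribed before its gene segments have been joined, so an Ighm UMI does not show that a cell made an antibody chain.

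RefSeq promoter windows on GRCm38.p6, from 250 bases before to 50 bases after a start, were at hand for 6 of the 8 members, and Cd79b and Ighm had no entry. These short motifs were searched on both strands of these windows: the E-box CAGGTG, the core CCCNNGGG of the EBF motif, and the core TGGGAA of the motif of RBPJ, the factor through which Notch acts. The E-box was found in the windows of Cd79a, Vpreb1, Igll1 and Blnk, and in 20.2% of all 32851 windows. The EBF core was found in the window of Igll1 (13.7% of all windows), and the RBPJ core in 1 of the 2 windows of Ebf1 (25.6% of all windows). A match is a description of letters and does not show a bound site. The 4 windows with an E-box are printed, because their genes are the structural and signalling parts of the receptor, from 250 bases before the start up to it, 5′ to 3′ on the strand of the gene and with the E-box or its reverse complement in capitals.
Cd79a, chr7:24897247-24897496, plus strand: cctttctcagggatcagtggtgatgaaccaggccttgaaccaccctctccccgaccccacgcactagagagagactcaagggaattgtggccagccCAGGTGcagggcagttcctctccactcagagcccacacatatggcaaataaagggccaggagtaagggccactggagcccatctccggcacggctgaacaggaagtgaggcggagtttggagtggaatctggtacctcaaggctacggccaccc
Vpreb1, chr16:16869256-16869505, minus strand: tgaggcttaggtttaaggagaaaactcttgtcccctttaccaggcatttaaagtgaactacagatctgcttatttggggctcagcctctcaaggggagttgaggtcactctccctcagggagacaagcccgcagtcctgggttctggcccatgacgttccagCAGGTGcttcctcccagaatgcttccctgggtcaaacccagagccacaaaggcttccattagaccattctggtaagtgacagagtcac
Igll1, chr16:16863986-16864235, minus strand: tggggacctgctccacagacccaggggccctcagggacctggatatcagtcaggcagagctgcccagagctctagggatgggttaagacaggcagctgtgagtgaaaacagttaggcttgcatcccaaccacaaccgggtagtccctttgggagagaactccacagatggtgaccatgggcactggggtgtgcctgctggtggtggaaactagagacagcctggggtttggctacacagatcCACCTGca
Blnk, chr19:40994222-40994471, minus strand: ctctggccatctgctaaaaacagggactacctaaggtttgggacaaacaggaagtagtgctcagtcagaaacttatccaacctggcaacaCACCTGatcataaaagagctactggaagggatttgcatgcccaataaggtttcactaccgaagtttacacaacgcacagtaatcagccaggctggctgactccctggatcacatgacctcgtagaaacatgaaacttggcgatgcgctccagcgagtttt

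The members were distributed over fetal liver progenitors in different ways. Ighm and Cd79b were spread over many progenitor-gate cells, whereas Cd79a, Vpreb1 and Igll1 in both libraries, and Ebf1 and Pax5 in FL001, had most of their UMIs in a handful of cells that held 4 or more members at once. In the progenitor gate the 8 members summed to 274.7 CPM (258.1 to 292.1) in FL001 and 203.8 CPM (190.5 to 217.9) in FL002. At least 1 member was detected in 53.5% (48.7 to 58.3) of these cells in FL001 and in 42.0% (38.4 to 45.7) in FL002. Of the cells with a member, 86.5% and 86.8% held Ighm or Cd79b and none of the other 6 genes. In the Il2ra gate this share was similar, at 79.2% and 83.9%. Cells with any of the other 6 genes made up 7.24% and 5.52% of the progenitor gate, against 6.78% and 4.44% of the Il2ra gate.

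Ebf1, the transcription factor that starts the B lineage, had 73 UMIs in 18 of 428 progenitor-gate cells of FL001 and 63 UMIs in 26 of 724 cells of FL002. This is 19.7 CPM (15.4 to 24.8) and 14.8 CPM (11.4 to 19.0). Ebf1 was at 1.24 CPM in the Il2ra gate of FL001 and 1.79 CPM in FL002. The level was thus 15.9-fold (7.64 to 38.1) and 8.29-fold (4.67 to 15.7) lower than in the progenitor gate. A single cell held 39.7% of the Ebf1 UMIs of the progenitor gate of FL001. When the cells that held 4 or more members were left out, Ebf1 in the progenitor gate was at 6.27 and 8.30 CPM, and the Il2ra gate was 5.04-fold (2.18 to 13.0) and 4.64-fold (2.47 to 9.15) lower. In the Tcf7 gate Ebf1 had 1 UMI in FL001 and 7 UMIs in FL002, and in the Cd3g gate 5 and 8. Its level was already low in the Tcf7 gate and the later Cd3g and Il2ra values had intervals that overlapped it.

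Pax5, the factor that fixes B-cell identity, was close to the limit of detection, with 5 UMIs in 2 progenitor-gate cells of FL001 and 10 UMIs in 6 cells of FL002. No UMI of Pax5 was found in the Tcf7, Cd3g or Il2ra gate of either library. With 3 cells as the limit that a count of 0 allows, 0 of 738 cells of the Il2ra gate allows a share of cells with a UMI of up to 0.407%, and 0 of 1668 cells of up to 0.18%. Its few UMIs in the progenitor gate leave its course across the gates undetectable at this depth. Ebf1 was therefore detected in more progenitor-gate cells than Pax5 in both libraries.

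Cd79b and Cd79a, the paired signalling chains of the receptor, were found in very different numbers of cells. Cd79b was detected in 140 of 428 progenitor-gate cells of FL001, or 32.7% (28.3 to 37.4), and in 154 of 724 of FL002, or 21.3% (18.3 to 24.4). Cd79a was detected in 5 cells of each library. Most Cd79b-positive cells thus had no UMI of Cd79a. Of the 5 Cd79a-positive cells, 4 held Cd79b in FL001 and 5 in FL002. The level of Cd79b in the progenitor gate was 54.0 CPM in FL001 and 46.8 CPM in FL002, and that of Cd79a was 3.24 and 2.59 CPM. Cd79b was 2.58-fold (1.87 to 3.61) and 2.38-fold (1.81 to 3.14) lower in the Tcf7 gate. The Il2ra gate had a level 3.58-fold (2.80 to 4.62) and 2.79-fold (2.23 to 3.48) lower. Cd79a had 0 UMIs in the Tcf7 and Cd3g gates of both libraries. Against a floor of 3 UMIs for the gate, Cd79a was 2.48-fold and 3.28-fold lower in the Tcf7 gate and 3.05-fold and 3.80-fold lower in the Cd3g gate. This floor leaves out the counting error of the progenitor gate. The intervals of the ratio reached up to 0.581 and 0.445 (Tcf7) and 0.472 and 0.385 (Cd3g). Lower Cd79a rested on the cells with 4 or more members, which held 11 of its 12 progenitor-gate UMIs in FL001 and 10 of 11 in FL002. Without them 1 UMI was left in each library, and the intervals for the Tcf7 gate reached up to 62.4 and 43.2.

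Vpreb1 and Igll1 together form the surrogate light chain. In the progenitor gate Vpreb1 was at 8.10 CPM in FL001 and 8 CPM in FL002, and Igll1 at 9.18 and 7.30 CPM. In the Il2ra gate Vpreb1 was at 5.75 and 5.49 CPM, a ratio of 0.71 (0.427 to 1.19) and 0.685 (0.431 to 1.10), so that its intervals held no change. The UMIs were distributed differently. In the progenitor gate of FL001 a single cell held 53.3% of the Vpreb1 UMIs, whereas in its Il2ra gate 37 UMIs lay in 34 cells. Without the cells with 4 or more members, which were chosen for their members and held 23 Vpreb1 UMIs in the progenitor gate of each library, the direction turned. Vpreb1 was then at 1.91 and 2.61 CPM in the progenitor gate, and the ratio of the Il2ra gate to it was 3.01 (1.33 to 8.01) in FL001 and 2.10 (1.07 to 4.50) in FL002. Igll1 was 6.57-fold (3.08 to 15.6) lower in the Il2ra gate of FL001 and 2.91-fold (1.62 to 5.33) lower in that of FL002. No cell of the Il2ra gate held more than 1 UMI of Igll1, with 9 UMIs in 9 cells and 21 UMIs in 21 cells. The direction for Igll1 rested on the cells with 4 or more members. Without them Igll1 had 3 UMIs in the progenitor gate of FL001 and 0 in that of FL002. With each cell counted only in its latest gate, its ratio of the Il2ra to the progenitor gate was 2.20 (0.393 to 22.3) in FL001 and 2.26 (0.745 to 9.19) in FL002. Vpreb1 shares 50% of the 31-base words of its transcript with its paralog Vpreb2, so counts of the pair are uncertain, and it overlaps Top3b, a gene on the opposite strand. Vpreb2 had 16 and 29 UMIs over all kept cells of the libraries, against 82 and 116 for Vpreb1.

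Ighm, the heavy chain gene, gave most of the UMIs of the program. In the progenitor gate it was at 178.4 CPM (165.0 to 192.5) in 35.7% of cells of FL001, and at 121.0 CPM (110.7 to 131.9) in 27.6% of cells of FL002. In the Tcf7 gate Ighm was at 28.8 and 29.2 CPM, in the Cd3g gate at 38.2 and 51.8 CPM, and in the Il2ra gate at 34.5 and 49.5 CPM. It was 6.20-fold (4.81 to 8.11) and 4.15-fold (3.37 to 5.14) lower in the Tcf7 gate than in the progenitor gate. In the Il2ra gate it was 5.17-fold (4.44 to 6.05) and 2.44-fold (2.14 to 2.79) lower. Cells of the progenitor gate also held more Ighm UMIs each, with 104 of 153 positive cells of FL001 at 2 or more UMIs, against 53 of 125 in the Il2ra gate.

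Blnk, the adaptor, had 3 UMIs in 3 progenitor-gate cells of FL001 and 4 UMIs in 2 cells of FL002, and at most 4 UMIs in any later gate. Its course across the gates was not detectable at this depth.

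**Figure D1:**
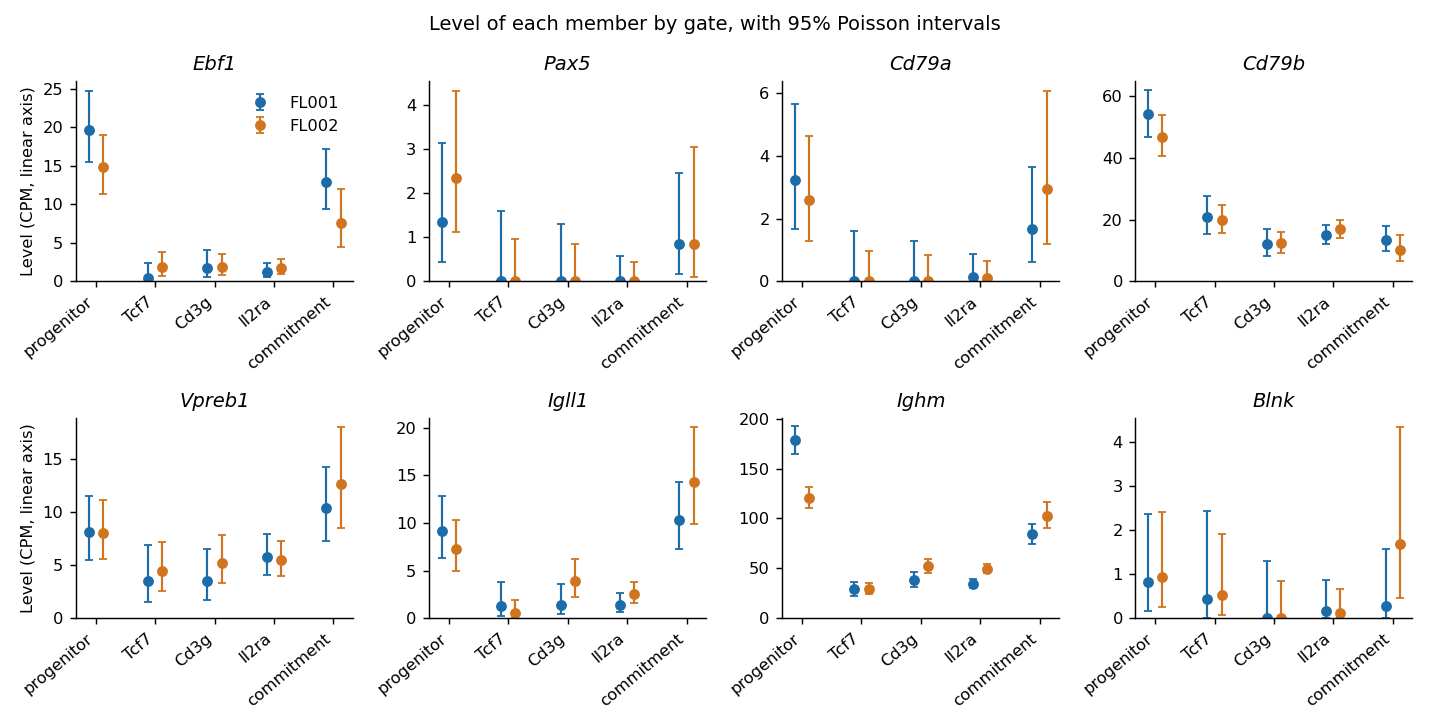
Level of each member (CPM on a linear axis that differs between panels) in the 5 gates, for FL001 and FL002, with bars for 95% Poisson intervals of the summed UMIs. Ebf1, Cd79b and Ighm are lower in the Tcf7, Cd3g and Il2ra gates of both libraries, and the commitment gate is higher than the Il2ra gate for Ebf1, Igll1 and Ighm.

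Within the progenitor gate, a handful of cells carried most UMIs of Cd79a, Vpreb1 and Igll1. Over the whole of both libraries 12 cells, 5 in FL001 and 7 in FL002, held at least 4 members, a number chosen after the values were seen. All 12 had Ebf1 and Cd79b, 11 had Ighm, 9 had Cd79a, 6 had Pax5, 6 had Vpreb1, 6 had Igll1 and 2 had Blnk. The following values come from genes that did not choose these cells. Vpreb3, a relative of Vpreb1, was detected in 5 of the 12 cells, Il7r, the receptor for interleukin 7, in 8, and Rag1, which cuts the antigen receptor genes, in 7. None of the 12 had a UMI of Tcf7, Il2ra, Ptcra or Bcl11b, and 2 had 1 UMI of Cd3g. They had between 3790 and 11345 UMIs.

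In the progenitor gate, 4 such cells of FL001 held 68.5% of the Ebf1 UMIs, 100% of those of Pax5, 91.7% of those of Cd79a, 76.7% of those of Vpreb1 and 91.2% of those of Igll1. The same 4 cells held 11% of the Cd79b UMIs and 19.7% of the Ighm UMIs. In FL002 the 6 such cells held 100% of the Igll1 UMIs, 44.4% of the Ebf1 UMIs and 6.61% of the Ighm UMIs of the gate. The cell with the most member UMIs, in FL001, held 131: 42 of Ighm, 29 of Ebf1, 23 of Igll1, 16 of Vpreb1, 13 of Cd79b, 4 of Cd79a, 3 of Pax5 and 1 of Blnk. Over all kept cells the shares in such cells were lower, at 58.4% and 30.5% of the Ebf1 UMIs, 63.3% and 44.4% of those of Igll1 and 28.0% and 19.8% of those of Vpreb1. Without the cells with 4 or more members the sum in the progenitor gate was 203.0 CPM in FL001 and 169.8 CPM in FL002. The progenitor gate, which is drawn on Lmo2 and Mef2c, took in 10 of the 12 cells. Mef2c, a factor of lymphoid and myeloid progenitors, was detected in 11 of the 12, and Lmo2, a factor of stem and early progenitor cells, in 2.

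**Figure D2:**
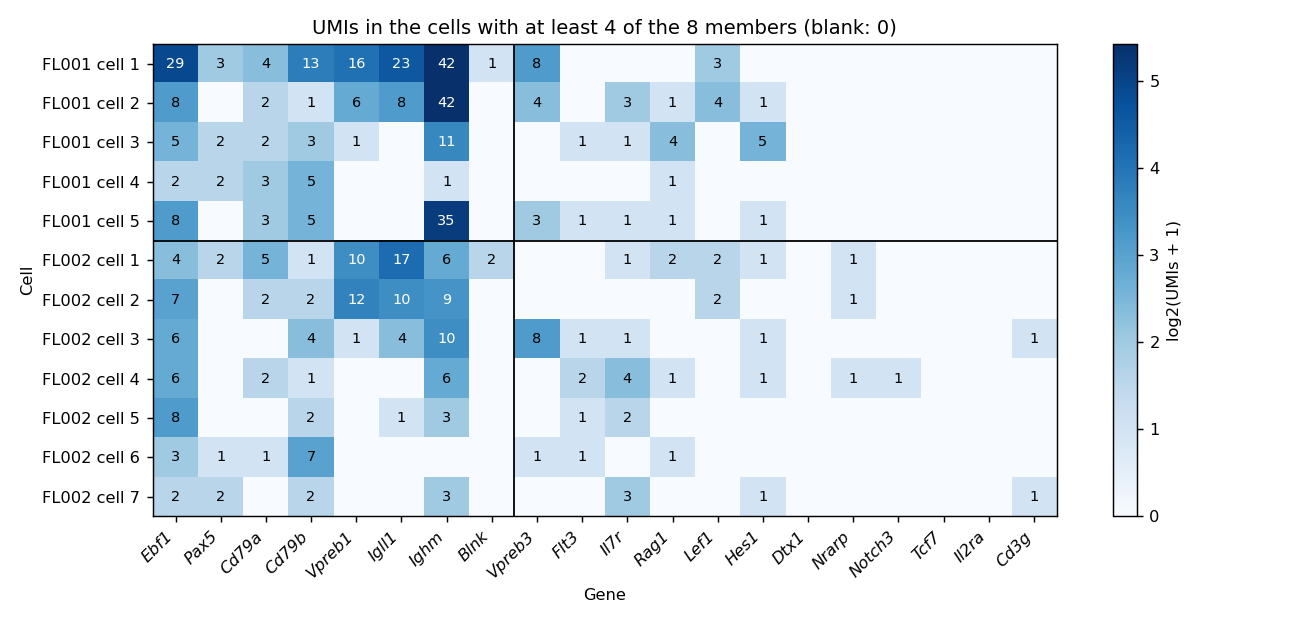
UMIs of the 8 members (left of the line) and of other genes in each of the 12 cells with at least 4 members, with colour for log2(UMIs + 1) and blank squares for 0. The columns of Tcf7 and Il2ra are empty, and Lef1 is present in 4 cells.

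Within the progenitor gate, co-detection was set against the number of cells expected if a pair were independent among cells of like depth, in 10 groups of cells by their UMIs. Ighm and Flt3 were found together in 78 cells of FL001 where 49.8 were expected, a ratio of 1.56 (1.24 to 1.95), and in 92 cells of FL002 where 49.1 were expected, a ratio of 1.87 (1.51 to 2.30). Ebf1 and Ighm were found together in 17 of the 18 Ebf1-positive cells of FL001 and in 21 of the 26 of FL002, ratios of 2.37 (1.38 to 3.80) and 2.87 (1.78 to 4.39). Ebf1 and Flt3 shared 13 cells where 6.93 were expected and 15 cells where 5.95 were expected. Ebf1-positive cells were therefore mostly Ighm-positive in both libraries. With Flt3 the ratios were 1.88 (0.999 to 3.21) in FL001 and 2.52 (1.41 to 4.16) in FL002. Intervals of co-detection ratios are Poisson intervals of the shared cells over the expected number. They do not use the limit that the number of positive cells sets on the shared cells. No difference between the libraries is therefore read from them.

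Cd79b was co-detected with Ighm and Flt3 at ratios closer to 1. With Ighm it shared 67 cells where 55.2 were expected in FL001, a ratio of 1.21 (0.940 to 1.54), and 58 cells where 43.2 were expected in FL002, a ratio of 1.34 (1.02 to 1.74). With Flt3 its ratios were 1.23 (0.926 to 1.59) and 1.21 (0.885 to 1.62), and the intervals held 1. With Ebf1 its ratios were 1.60 (0.799 to 2.86) and 2.27 (1.17 to 3.97), and with Igll1 1.07 (0.129 to 3.86) and 5.14 (1.06 to 15.03). With Cd79a it shared 4 cells where 1.80 were expected in FL001, an interval of the ratio of 0.606 to 5.69, and 5 cells where 1.04 were expected in FL002, an interval of 1.56 to 11.2. In FL002 the intervals for Ebf1, Cd79a and Igll1 left out 1, on 12, 5 and 3 shared cells. These values rested on the cells with 4 or more members. Without them Cd79b in FL002 shared 6 cells with Ebf1, a ratio of 1.52 (0.557 to 3.31), 1 with Cd79a and 0 with Igll1. Its ratio with Ighm was then 1.30 (0.973 to 1.70). Vpreb1 was found with Flt3 in 1 cell of FL001 and 2 cells of FL002. Ebf1 with Ighm had ratios of 2.38 (1.27 to 4.07) and 2.89 (1.65 to 4.69) without the cells with 4 or more members.

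The share of progenitor-gate cells with Flt3 was higher in cells with a member than in cells with none. In FL001 it was 17.1% with no member, 33.3% with 1, 55.1% with 2 and 61.5% with 3 or more. In FL002 it was 13.1%, 35.2%, 44.3% and 43.8% in the same order. The classes with 3 or more members held 13 and 16 cells, with intervals of 31.6 to 86.1% and 19.8 to 70.1%, so no order between them and the cells with 2 could be read. Cells with any member had Flt3 in 41.5% (35.03 to 48.2) of FL001 and 37.5% (32.0 to 43.2) of FL002, which was 2.43 times (1.63 to 3.71) and 2.86 times (2.06 to 4.03) the share of cells with none. Deeper cells show more genes, and the median depth was 6955 UMIs with no member and 9262 with any in FL001, and 5314 and 5939 in FL002. After each cell was thinned to 1500 UMIs the shares were 7.19% (4.66 to 10.5) without and 11.7% (5.99 to 19.97) with a member in FL001, where the intervals overlapped, and 4.19% (2.73 to 6.13) and 20.3% (13.7 to 28.3) in FL002, where they did not. With Ighm left out of the members, the ratio of the shares in FL002 was 1.48 (1.05 to 2.06).

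**Figure D3:**
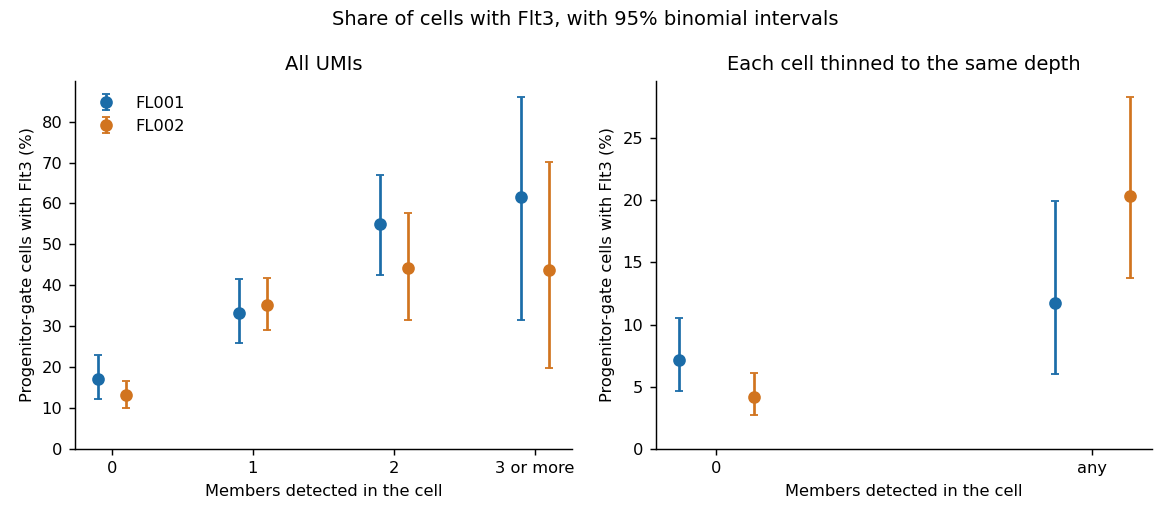
Share of progenitor-gate cells with a UMI of Flt3 (%), by the number of members detected in the same cell, for all UMIs (left) and after thinning each cell to 1500 UMIs (right), with bars for 95% binomial intervals. With all UMIs the share is 17.1% and 13.1% with no member in FL001 and FL002 and at least 33.3% in each class with a member.

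Across the T-lineage gates the summed level of the members was lower. Ighm and Cd79b gave most of this sum. In the progenitor gate they held 661 and 200 of 1018 UMIs in FL001, and 514 and 199 of 866 in FL002. The sum does not stand for each member, as the values of Vpreb1, Igll1, Pax5 and Blnk above show. The sum of the 8 members was 4.96-fold (4.12 to 6.02) lower in the Tcf7 gate of FL001 and 3.62-fold (3.12 to 4.23) lower in that of FL002. In the Cd3g gate it was 4.82-fold (4.08 to 5.73) and 2.72-fold (2.39 to 3.10) lower, and in the Il2ra gate 4.72-fold (4.19 to 5.33) and 2.67-fold (2.41 to 2.96) lower. The sum in these 3 gates lay between 55.4 and 58.2 CPM in FL001 and between 56.3 and 76.3 CPM in FL002. The sum was thus already low in cells with Tcf7 and little Cd3g. In FL002 it was lower there than in the Cd3g and Il2ra gates, with no overlap of the intervals. The Tcf7 and Il2ra gates of FL002 shared 213 cells, which these intervals do not take into account. Flt3 was lower still, 10.9-fold (6.10 to 21.4) and 10.7-fold (6.80 to 17.9) in the Tcf7 gate and 26.2-fold (15.3 to 48.7) and 12.8-fold (9.03 to 18.6) in the Il2ra gate.

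Members with at least 50 UMIs in a library were counted as lower when their CPM was at least 2-fold lower, with 1 CPM added to both levels. That took in Ebf1, Cd79b, Vpreb1 and Ighm in FL001 and also Igll1 in FL002, so that 4 and 5 of the 8 members were counted. Ebf1 in FL001 reached this minimum only with the progenitor gate, which held 73 of its 89 UMIs. The same holds for Igll1 in FL002, with 31 of 72 UMIs there. A lower level of these members in other gates was thus partly set by the minimum, and the counts are a description only. In FL001, 4 of 4 were lower in the Tcf7 gate, against 4.22% of all 9628 genes counted in the same way. In the Cd3g gate 4 of 4 were lower, against 6.28%. Vpreb1 was among them on 8 and 10 UMIs against 30 in the progenitor gate. Without the cells with 4 or more members its ratios were 1.83 (0.579 to 5.92) and 1.85 (0.637 to 5.74), with intervals that held 1. In the Il2ra gate 3 of 4 were lower (background 5.39%), all but Vpreb1, and in the commitment gate 2 of 4 (7.28%), Cd79b and Ighm. In FL002, 4 of 5 were lower in the Tcf7 gate, all but Vpreb1, against 4.12% of 10094 genes. In the Cd3g gate of FL002 3 of 5 were lower (5.4%), in the Il2ra gate 4 of 5 (4.89%), and in the commitment gate 1 of 5 (6.98%), Cd79b. No member was at least 2-fold higher in any of these comparisons, against 2.97%, 5.97%, 6.01% and 7.02% of all genes in the same order of gates in FL001 and 3.84%, 5.85%, 5.91% and 7.63% in FL002. The median log2 difference of the counted members was −1.96 in the Tcf7 gate and −2.06 in the Il2ra gate of FL001, and −2.01 and −1.27 in FL002, whereas the median of all genes lay between −0.01 and −0.05.

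Markers of other lineages differed between the same gates. The 8 neutrophil/monocyte markers summed to 2331 and 1565 CPM in the progenitor gates of FL001 and FL002, with all 8 detected, and to 242.2 and 135.2 CPM in the Il2ra gates. The 8 megakaryocyte/erythroid markers summed to 754.3 and 329.0 CPM in the progenitor gates and 114.0 and 31.5 CPM in the Il2ra gates. The 5 stem and progenitor markers were at 468.2 and 438.5 CPM against 82.0 and 88.7 CPM. In the other direction, the 7 innate lymphoid/NK markers were at 105.3 and 76.7 CPM in the progenitor gates and 190.1 and 176.2 CPM in the Il2ra gates, and the 5 mast/basophil markers at 63.4 and 74.8 CPM against 121.1 and 118.8 CPM. The 8 dendritic markers went from 238.8 to 159.3 CPM in FL001 and from 251.8 to 314.2 CPM in FL002. These sums do not stand for each marker. Of 5 counted dendritic markers, Cd74, Flt3 and Irf8 were at least 2-fold lower in the Il2ra gate of both libraries, and Bst2 was higher. Of 3 counted mast/basophil markers, Gata2 was lower and Cpa3 higher in both. Itga2b in FL001 and Klrd1 in FL002 also went against the sums of their lists. The part of these markers in the levels of the members was not tested. In an alternative, progenitor-gate cells were left out if Mpo, Elane, Prtn3, Ctsg and Lyz2 summed to at least 5 UMIs. Cells where Pf4, Itga2b, Gp1bb, Klf1, Gata1 and Car1 summed to at least 3 were also left out. No cell was left out for stem, dendritic, innate lymphoid/NK or mast/basophil markers. The sum of the members in the progenitor gate was then 370.8 CPM in FL001 and 254.6 CPM in FL002, higher than with all cells. The Il2ra gate had 0.157 and 0.300 of that level.

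The members differed in how they were shared between progenitors with and without myeloid markers. Myeloid-marker cells were those where Mpo, Elane, Prtn3, Ctsg and Lyz2 summed to at least 5 UMIs, a cut that took in deeper cells. Within the gate their median depth was 9393 UMIs against 6679 in FL001, and 7029 against 4956 in FL002. Cd79b had ratios of 0.967 (0.722 to 1.30) and 0.911 (0.679 to 1.22) between these progenitor-gate cells and the other cells of the gate. Ighm had ratios of 0.789 (0.675 to 0.923) and 0.772 (0.642 to 0.925) with all cells. Without the cells with 4 or more members they were 0.974 (0.815 to 1.17) and 0.852 (0.706 to 1.03), and both intervals held 1. The share of cells with Ighm ran the other way, at 39.4% against 31.25% in FL001 and 31.7% against 25.4% in FL002. After thinning to equal depth it was 15.7% against 17.2% and 11.6% against 12.5%. Lower Ighm in myeloid-marker cells was thus not held without the cells with 4 or more members. Ebf1 was 2.65-fold (1.62 to 4.42) lower in the myeloid-marker cells of FL001 and 6.28-fold (2.86 to 16.3) lower in those of FL002, and Vpreb1 10.7-fold and 12.6-fold lower. Igll1 had 2 UMIs against 32 in FL001 and 0 against 31 in FL002. Single cells carried much of this in FL001, where 1 cell held 64.4% of the Ebf1 UMIs, 61.5% of the Vpreb1 UMIs and 71.9% of the Igll1 UMIs of the cells without myeloid markers. The share of cells with Ebf1 ran the other way there, with 11 of 236 myeloid-marker cells (4.66%) against 7 of 192 others (3.65%), while in FL002 it was 4 of 259 (1.54%) against 22 of 465 (4.73%). Without the cells with 4 or more members the ratios for Ebf1 were 1.13 (0.450 to 3.08) in FL001 and 0.314 (0.116 to 0.735) in FL002, and those for Vpreb1 were 0.452 (0.0662 to 2.67) and 0.279 (0.0293 to 1.35). Lower Ebf1 in myeloid-marker cells was thus held in FL002 and lost in FL001. For Flt3 the intervals held 1, with ratios of 1.22 (0.909 to 1.65) and 1.19 (0.917 to 1.55).

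Inside the progenitor gate, cells with a UMI of Tcf7 held less of the program than cells without. The sum was 111.3 CPM in the 46 Tcf7-positive cells of FL001 and 298.3 CPM in the other 382 cells, a ratio of 0.373 (0.277 to 0.494). In FL002 it was 79.8 CPM in 80 cells and 221.8 CPM in 644 cells, a ratio of 0.360 (0.258 to 0.489). Ebf1 had 0 UMIs in the Tcf7-positive cells of both libraries, against 73 and 63 UMIs in the other cells. Against a floor of 3 UMIs for the Tcf7-positive cells it was 3.51-fold and 3.05-fold lower. This floor leaves out the counting error of the other cells, and the intervals of the ratio reached up to 0.359 and 0.415. Ighm had ratios of 0.447 (0.316 to 0.615) and 0.308 (0.191 to 0.472), and Flt3 of 0.345 (0.163 to 0.648) and 0.177 (0.0641 to 0.390). Without the cells with 4 or more members, all of which lacked Tcf7, the ratios of the sum were 0.515 (0.380 to 0.683) and 0.436 (0.313 to 0.594). For Ebf1 these intervals then reached up to 1.19 in FL001, which holds no difference, and 0.759 in FL002. In Tcf7-gate cells outside the progenitor gate the sum was 41.1 CPM in FL001 and 52.4 CPM in FL002, or 0.138 (0.107 to 0.174) and 0.236 (0.199 to 0.279) of the Tcf7-negative progenitors.

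A split of the same cells by direct targets of Notch gave different values. In FL001 111 progenitor-gate cells and in FL002 199 had a UMI of Hes1, Dtx1, Nrarp or Notch3. Their sum of the members was 282.5 CPM against 271.7 CPM in the other cells of FL001, a ratio of 1.04 (0.904 to 1.19), and 265.2 CPM against 178.9 CPM in FL002, a ratio of 1.48 (1.29 to 1.70). These values rested on the cells with 4 or more members, of which 8 of the 10 in the gate had a Notch target, Hes1 in 7 of them. Without them the ratios were 0.664 (0.552 to 0.796) in FL001 and 0.891 (0.750 to 1.05) in FL002, so the values of both libraries went from above to below 1. The interval held 1 in FL001 only with all cells and in FL002 only without these cells. Ebf1 had ratios of 1.70 (1.03 to 2.78) and 4.01 (2.35 to 6.97) with all cells, and of 1.41 (0.516 to 3.53) and 1.68 (0.790 to 3.46) without them. Flt3 was lower in Notch-target cells, at ratios of 0.514 (0.347 to 0.742) and 0.493 (0.342 to 0.696). The Notch-target cells of the gate were deeper in FL001, with a median of 9007 UMIs against 7643.

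**Figure D4:**
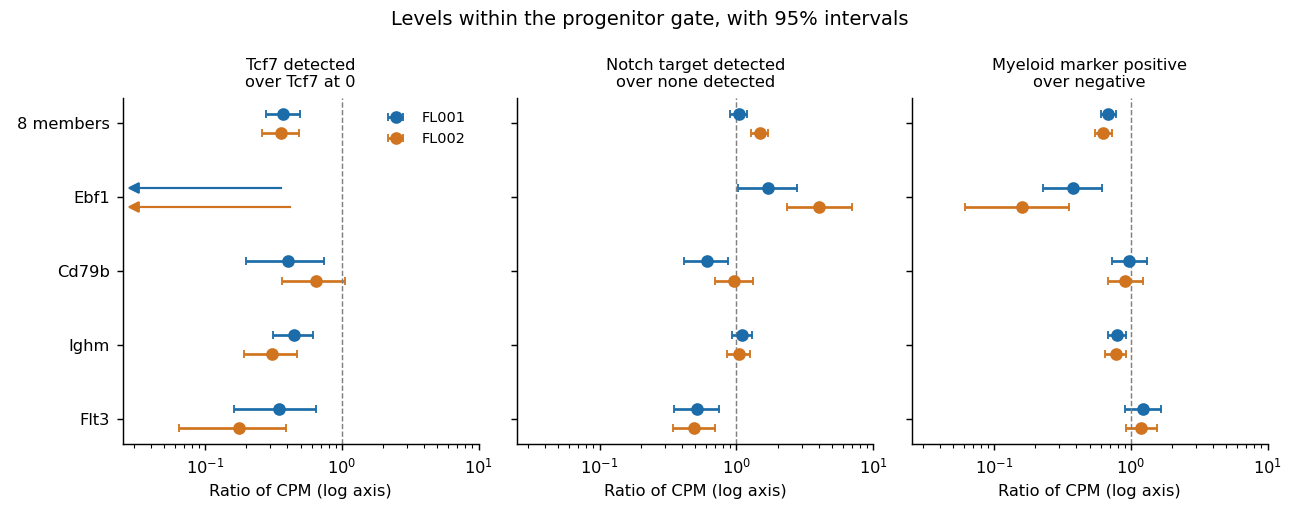
Ratio of CPM (log axis) between 2 classes of progenitor-gate cells, for the sum of the members, Ebf1, Cd79b, Ighm and Flt3, split by Tcf7, by Notch targets and by myeloid markers, with bars for 95% intervals and arrows where the first class had 0 UMIs. All values of the Tcf7 split lie below 1, and those of the Notch target split lie on both sides of it.

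The commitment gate was drawn on Ptcra, Lef1 and Bcl11b, which T-cell precursors use around commitment, but it also took in progenitor-gate cells through Lef1. The sum of the members was higher in it than in the Il2ra gate, at 133.7 CPM in FL001 and 152.9 CPM in FL002. Of the 12 cells with 4 or more members, 4 were inside it, 2 in each library, through 2 to 4 UMIs of Lef1 and none of Ptcra or Bcl11b. These 4 cells had Igll1 and Vpreb1, and in FL001 a pair of them held 83.8% of the Igll1 UMIs of the gate. Commitment-gate cells with Lef1 and no UMI of Ptcra or Bcl11b numbered 84 in FL001 and 40 in FL002. They held the members at 372.2 and 482.6 CPM. Most of these member UMIs, 198 in FL001 and 89 in FL002, lay in the pair of cells with 4 or more members. With Ptcra and Bcl11b alone as the gate the sum was 66.7 CPM in FL001 and 113.0 CPM in FL002, against 58.2 and 76.3 CPM in the Il2ra gate. This is a ratio of 1.15 (0.946 to 1.38) in FL001, whose interval held 1, and of 1.48 (1.26 to 1.74) in FL002.

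Ighm was higher in the commitment than in the Il2ra gate also without these cells. It was at 83.9 and 102.6 CPM in the whole gate, at 60.7 and 96.8 CPM without the cells with 4 or more members, and at 48.0 and 94.1 CPM with Ptcra and Bcl11b alone. Against the Il2ra gate these are ratios of 2.43 (2.04 to 2.91) and 2.07 (1.76 to 2.44), of 1.76 (1.45 to 2.13) and 1.96 (1.66 to 2.30), and of 1.39 (1.10 to 1.75) and 1.90 (1.58 to 2.28). The level of Ighm in the commitment gate was thus above that in the Il2ra gate in both libraries under each of the 3 definitions of the gate. Of the whole commitment gate, 275 of 451 cells in FL001 and 291 of 501 in FL002 were also in the Il2ra gate. The intervals in this comparison treat the sums of both gates as independent, so they are a description only. Cd79b lay below the Il2ra gate, at 13.4 and 10.1 CPM in the whole commitment gate, a ratio of 0.892 (0.617 to 1.27) in FL001 and 0.603 (0.374 to 0.934) in FL002. Without the cells with 4 or more members its ratio was 0.635 (0.416 to 0.947) and 0.530 (0.318 to 0.842). With Ptcra and Bcl11b alone it was 0.637 (0.386 to 1.01) and 0.560 (0.317 to 0.929). The interval for Cd79b thus left out 1 under each definition in FL002, and under 1 of the 3 in FL001.

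**Figure D5:**
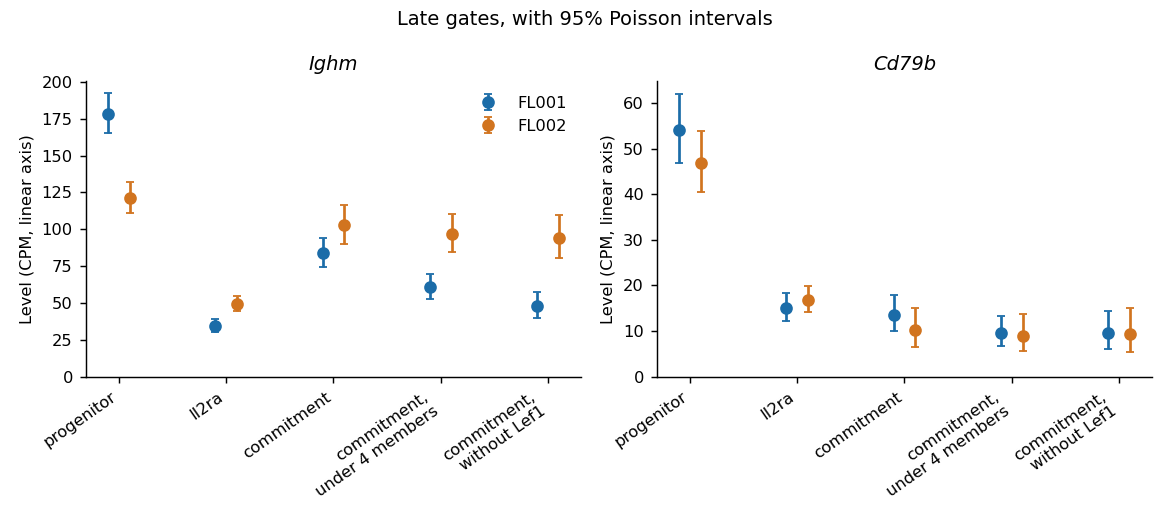
Level of Ighm and Cd79b (CPM, linear axes) in the progenitor gate, the Il2ra gate and 3 definitions of the commitment gate, with bars for 95% Poisson intervals. Ighm in the commitment gate lies above the Il2ra gate under each definition, and Cd79b lies at or below it.

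Barcodes with 100 UMIs or fewer, which hold RNA that was free in the droplets, carried the members too. The 8 members were at 103.6 CPM in those of FL001 and 106.7 CPM in those of FL002, Ighm at 62.8 and 79.2 CPM and Cd79b at 20.9 and 15.1 CPM. For the sum and for Ighm these levels are above those of the Tcf7, Cd3g and Il2ra gates of both libraries. Cd79b was above its Il2ra gate in FL001 and below it in FL002. In the commitment gate of FL001, Ighm was below these barcodes at 60.7 CPM without the cells with 4 or more members. It was also below them at 48.0 CPM with Ptcra and Bcl11b alone. The other values of Ighm in the commitment gates were above them. Vpreb1 was at 9.92 and 6.23 CPM and Igll1 at 6.61 and 2.67 CPM in such barcodes, with intervals that overlapped those of the progenitor gate for Vpreb1 in both libraries. Both genes were above their Il2ra gate levels in both libraries. The part of free RNA in the levels of the gates was not tested. Cells with at least 3 UMIs of the megakaryocyte/erythroid markers Pf4, Itga2b, Gp1bb, Klf1, Gata1 and Car1, which should lack the program, served as another reference. They were not kept apart from the gates, and 15 of the 39 in FL001 and 24 of the 47 in FL002 were progenitor-gate cells. Itga2b was itself at least 2-fold higher in the Tcf7 and Il2ra gates of FL001 than in its progenitor gate. Ighm was found in 0 of 39 reference cells of FL001, which allows a share of up to 7.69% with 3 cells as the limit. In FL002 it was found in 1 of 47, or 2.13% (0.0539 to 11.3). Median depths were 8302 and 5904 UMIs. Ighm was found in 16.9% (14.3 to 19.8) and 17.9% (16.1 to 19.8) of Il2ra-gate cells, at medians of 7909 and 4472.5 UMIs. Cd79b was found in 12.8% (4.30 to 27.4) and 8.51% (2.37 to 20.4) of the reference cells, against 11.9% and 7.73% in the Il2ra gate. The Cd79b shares of the Il2ra gate, the Cd3g gate (8.87% and 5.96%) and the commitment gate (6.87% and 4.39%) were no higher than those of the reference cells, which rest on 5 and 4 positive cells. These shares are therefore read neither as expression in the T-lineage gates nor as its absence. Vpreb1 was found in 2 of the 39 reference cells of FL001, a share of 5.13% (0.627 to 17.3) against 4.61% in its Il2ra gate. In FL002 it was found in 0 of 47, which allows a share of up to 6.38%, against 42 of 1668 cells, or 2.52% (1.82 to 3.39), of the Il2ra gate. The Vpreb1 shares of the Il2ra gates could not be told from those of the reference cells at this depth. Ebf1, Pax5, Cd79a and Blnk had no UMI in the reference cells of either library. The limits of 7.69% and 6.38% are above the shares of these genes in the progenitor gates, so these zeros could not show a difference. Igll1 was found in 1 of the 39 reference cells of FL001 and in 0 of the 47 of FL002.

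Regulators around the program followed different courses. Of 16 regulators of the B lineage, 13 were counted, and in the Il2ra gate 4 were at least 2-fold lower in both libraries, Irf8, Spi1, Bcl11a and Id3. Irf8, a factor of dendritic cells, monocytes and B cells, had ratios of 0.0664 (0.0487 to 0.0889) and 0.0743 (0.0542 to 0.0998). Spi1, which encodes PU.1, had ratios of 0.331 and 0.380, and Bcl11a, needed for early lymphoid cells, of 0.408 and 0.496. The broad lymphoid factors were closer to 1, with ratios of 0.864 (0.782 to 0.954) and 0.965 (0.877 to 1.06) for Tcf3, which encodes E2A, and of 0.802 (0.702 to 0.918) and 0.938 (0.831 to 1.06) for Ikzf1. In FL001 1 regulator was higher, Spib, and in FL002 3, Tcf12, Spib and Id2.

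Among the 15 later B lineage genes only 4 reached 50 UMIs, and they did not fall together with the members from the progenitor to the Il2ra gate. Rag1 was higher in the Il2ra gate at ratios of 6.54 (3.53 to 13.4) and 7.21 (4.11 to 13.8), and T-cell precursors also use this enzyme. Mzb1, a chaperone of immunoglobulin, had ratios of 3.06 (2.48 to 3.82) and 1.56 (1.32 to 1.85). In all, 3 of 4 were at least 2-fold higher in FL001 and 1 of 4 in FL002, where Bank1 was lower. Vpreb3 was lower, with 16 and 14 UMIs in the progenitor gates and 3 and 4 in the Il2ra gates. Progenitor-gate cells with 4 or more members held 8, 4 and 3 of these UMIs in FL001 and 8 and 1 in FL002. The direction in FL001 rested on these cells. Of 9 lymphoid priming genes 7 were counted, and Flt3 was lower in both libraries, whereas Ccr7 was higher in both. Il7r was at a ratio of 2.73 (1.99 to 3.82) in FL001 and 2.04 (1.49 to 2.82) in FL002. All 6 counted Notch response genes, such as Hes1 with ratios of 4.16 (3.35 to 5.21) and 4.28 (3.61 to 5.10), were at least 2-fold higher in the Il2ra gate of both libraries.

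Progenitor-gate cells with 2 or more UMIs of the members, 143 in FL001 and 159 in FL002, were compared with the 199 and 420 cells with none, over 5087 genes. The 5 genes with the highest fold in the weaker library were Cox6a2, Irf8, Il7r, Tifab and Nfil3. Irf8 was at 253.5 CPM against 23.9 CPM in FL001 and at 231.8 CPM against 22.3 CPM in FL002. It was found in 59 of the 143 cells and in 59 of the 159 cells. Il7r was at 27.9 CPM against 0.682 CPM and at 37.7 CPM against 3 CPM. Cox6a2, a subunit of the respiratory chain, had 40 UMIs against 1 in FL001 and 53 against 5 in FL002. Mzb1 stood at place 9, at 55.9 CPM against 10.9 CPM in FL001 and 131.3 CPM against 12.9 CPM in FL002. It was thus higher in the member-positive cells of the gate, although its level did not fall with the members between the gates. Lmo2 was lower in the member-positive cells, at ratios of 0.648 (0.554 to 0.758) and 0.595 (0.506 to 0.696), and Mef2c higher, at 1.52 (1.33 to 1.72) and 1.58 (1.41 to 1.78), although the gate was drawn on their sum. Members and depth chose these cells, so the comparison is a description.

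Over the 5 gates of both libraries, the genes whose level was most like that of the sum of the members were Cd2ap with r = 0.959, Fam53b with r = 0.948, Rsrc2 with r = 0.940, Eif1b with r = 0.938 and Foxp1 with r = 0.937, among 5707 genes and over 10 points. The points share libraries and in part cells. Foxp1, a factor that acts in early B cells, was at 173.0 and 165.7 CPM in the progenitor gates, 114.8 and 133.3 CPM in the Il2ra gates and 127.9 and 144.4 CPM in the commitment gates. Flt3 had r = 0.764 and stood at place 169, with 2.52 and 3.80 CPM in the commitment gates and 2.17 and 4.41 CPM in the Il2ra gates.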

How the data were processed

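Cells of both droplet libraries were measured by single-cell RNA sequencing, and the authors deposited raw UMI counts per gene and barcode for every barcode, with no filter on cells. The processing notes of the submitters name mm9, while the gene identifiers include later ones, and the version of Cell Ranger is not given in the sources used here. Reads are counted by UMI, so PCR copies are counted once, and only the captured end of a transcript is read.

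Each library was analysed alone, as a group of 1. Cells were filtered and gated as stated in the report with python 3.11.15, numpy 2.4.6, scipy 1.17.1 and pandas 2.3.3, and figures were drawn with matplotlib 3.10.9. UMIs were summed per gate. Intervals are exact 95% Poisson intervals for UMIs, exact binomial intervals for shares and exact conditional intervals for ratios of levels or shares. For co-detection ratios, the Poisson interval of the shared cells was divided by the expected number. A count of 0 was given a limit of 3 counts. To compare shares at equal depth, 1500 UMIs were drawn from each cell without replacement. Scrublet in scanpy 1.11.5 marked 0.391% and 0.22% of cells as doublets, too few to have worked, so no cell was removed by it and the top 5% of scores were left out as an alternative. The 10 shared barcodes were kept in both libraries. The members, gates and gene lists were chosen with earlier results of these data known. Genes named beside the members were the 5 of highest fold in the weaker library among genes with at least 20 CPM in member-positive cells of both libraries, the 5 of highest r over the gates, the gate genes and genes of the fixed lists. Promoter sequence came from RefSeq windows on GRCm38.p6 and overlapping genes and shared words from GENCODE transcripts. The alternatives changed the cell filters, gates, thinning, scaling, pseudocount and members. The scripts were tested on simulated data. A few genes of the fixed lists are not reported here.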

Additional observations from a re-analysis of the deposited data

Results flagged for a closer look

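Cd79a differed between the libraries in direction from the progenitor gate to the commitment gate. Its ratio was 0.518 (0.160 to 1.49) in FL001, from 6 UMIs against 12, and 1.14 (0.375 to 3.23) in FL002, from 7 UMIs against 11. The difference between the libraries was not tested, and both intervals held 1. All of the Cd79a UMIs of the commitment gate lay in cells with at least 4 members, 2 in each library.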

How the results depend on the processing

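No paired analysis was possible because each library is a group of 1 with no test, and both carry only the number 1. The ratios of the sum stayed below 1 in all 4 gates of both libraries under each alternative tried. Values are given for FL001 first and, where both moved beyond the counting interval, FL002 after it. Without the cells with at least 4 members, an alternative chosen after the data were seen, the sum in the progenitor gate was 203.0 and 169.8 CPM, and its ratios were 0.273 and 0.331 (Tcf7), 0.281 and 0.441 (Cd3g), 0.287 and 0.449 (Il2ra) and 0.388 for FL001 (commitment). The Tcf7 split within the gate was then 0.515 for FL001, and the Notch target split 0.664 and 0.891, which went from above to below 1 in both. For single members, the ratio of the Il2ra to the progenitor gate turned to 1.71 for Igll1 in FL001, and the ratio between progenitor-gate cells with and without myeloid markers turned in FL001 to 1.13 for Ebf1 and 1.21 for Igll1. No cell of the Tcf7, Cd3g or Il2ra gate held 4 or more members, so this alternative changed only the progenitor side of the ratios of these gates. With a commitment gate without Lef1, also chosen after the data were seen, its ratio was 0.243 and 0.554.

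With Ighm left out, the sum was 96.3 and 82.8 CPM, the share of cells with a member 36.2% and 24.6%, the ratios 0.276 and 0.327 (Tcf7), 0.280 for FL002 (Cd3g), 0.247 and 0.324 (Il2ra) and 0.607 for FL002 (commitment), and the Flt3 ratio 1.48 for FL002. Without cells with myeloid or megakaryocyte and erythroid markers, the sum was 370.8 and 254.6 CPM and the ratios 0.149 and 0.221 (Tcf7), 0.154 and 0.295 (Cd3g), 0.157 and 0.300 (Il2ra) and 0.361 and 0.600 (commitment). With a progenitor gate of at least 4 UMIs and no Cd3g, the sum was 329.0 and 243.6 CPM, the share with a member 59.3% and 47.7%, and the ratios 0.231 for FL002 (Tcf7), 0.173 and 0.308 (Cd3g), 0.177 and 0.313 (Il2ra) and 0.406 and 0.627 (commitment). With each cell only in its latest gate, the sum was 240.9 CPM in FL001, the ratios 0.244 (Tcf7) and 0.555 (commitment) in FL001 and 0.323 (Cd3g) in FL002, and Igll1 turned to 2.20 and 2.26 in the Il2ra gate. Scaling without mitochondrial and ribosomal protein genes gave sums of 382.1 and 285.9 CPM.

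Thinned to 1500 UMIs, the share with a member was 22.0% and 17.7%, the ratios 0.286 and 0.473 (Cd3g) and 0.440 for FL002 (Il2ra), and the Flt3 ratio 4.84 for FL002. With the gates also drawn on thinned UMIs, the sum was 297.6 CPM in FL001, the share with a member 21.4% and 20.1%, and the ratios 0.133 and 0.346 (Tcf7), 0.300 and 0.488 (Cd3g), 0.463 for FL002 (Il2ra) and 0.273 for FL001 (commitment). The Flt3 ratio was then 0.367 (0.00845 to 2.58), turned, in FL001 and 6.25 in FL002, and Cd79a and Igll1 gave no value in FL002. The count of members lower in the Il2ra gate was 6 in FL001 with no minimum of UMIs. In FL002 it was 1 when thinned, 2 with thinned gates and 1 at 4-fold. The cause of these differences was not tested. Depth limits Pax5, Cd79a and Blnk most, with at most 16 UMIs each in a library.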
